A study of Gallus gallus with 6 samples.

Results

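Cadherins are calcium-dependent adhesion proteins of the cell surface. In the embryonic brain, neighbouring subdivisions, nuclei and fibre tracts express different members, and cells that carry the same member tend to adhere to each other. The 10 genes described here were CDH1, CDH2, CDH4, CDH6, CDH7, CDH8, CDH10, CDH11, CDH13 and CDH20. They were chosen as cadherins of brain subdivisions, with earlier results of these data known. Their probe sets were those to which the platform annotation gives 1 of these symbols and no other. This yielded 21 of 37693 chicken probe sets, between 1 and 4 a gene. The samples were 3 female and 3 male pools of chick brains (Gallus gallus) at stage 29, at 6 to 6.5 days of incubation. Each pool held 5 to 8 genetically sexed embryos and went on 1 Affymetrix array. The labels name no treatment and no breed. Values are log2 signals, and a difference of 1 is a doubling.

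The classical type I cadherins, here CDH1, CDH2 and CDH4, bind catenins with their cytoplasmic tails and through them the actin cytoskeleton. The type II cadherins, here CDH6, CDH7, CDH8, CDH10, CDH11 and CDH20, share that tail design but differ in the adhesive surface, and their combinations mark brain nuclei and motor neuron pools in the chick. CDH13, or T-cadherin, has no cytoplasmic tail and is held to the membrane by a lipid anchor. By the RefSeq annotation of the assembly GRCg7b, 5 of the 10 genes lie on chromosome 2, 4 on chromosome 11 and 1, CDH4, on chromosome 20, so none lies on a sex chromosome. CDH11 and CDH8 are direct neighbours on chromosome 11, with 0 protein-coding genes between them, and 3 protein-coding genes separate CDH20 from CDH6 on chromosome 2.

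No cadherin probe set differed between female and male brains at an adjusted p under 0.05 (limma with Benjamini-Hochberg adjustment over all chicken probe sets, n = 3 pools per sex), 0 of 21 against 0.554% of all chicken probe sets. The adjusted p of the members lay between 0.310 and 0.991. Without adjustment, 2 of 21 had a p under 0.05, those of CDH4 and CDH6, against 10.4% of all chicken probe sets. The count of members called was also 0 with trended robust variances, with array weights and without any 1 pool. The largest differences, in 7 probe sets of CDH8, CDH11, CDH2, CDH7 and CDH4, had higher means in female pools by 1.24-fold to 1.42-fold, and of these 7 only the CDH4 probe set separated the sexes.

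Before the members are taken in turn, the pools need a description. HINTW, a gene of the female-specific W chromosome, had 13.09 to 13.31 in female pools and 4.63 to 5.96 in male pools, which separated the sexes as labelled. All 7 brain markers on the array lay above background, among them the neuronal genes STMN2, at 12.58 to 12.76 in female pools and 12.54 to 12.75 in male pools, and TUBB3, at 12.03 to 12.49 in female pools and 11.64 to 11.97 in male pools. Background was judged from the array's viral and other non-chicken probe sets, whose mean signals had a 95th percentile of 4.21. Of the 21 cadherin probe sets 16, in 9 genes, had a mean above it. The male HINTW values also lay above 4.21, although HINTW is a gene of the female-specific chromosome. A mean above this line therefore does not by itself show that a transcript was present. Female pool 3 stood apart in several HOX genes of the hindbrain and spinal cord list: HOXB3 had 3.75 there and at least 7.19 in each other pool, and HOXA3 had 3.25 there and at least 6.47 elsewhere. Not all genes of the list shared this: HOXB2 had 4.98 there and 5.01 to 5.13 elsewhere, and HOXA2 and HOXB1, both under background, were not lowest there. Over the 10 genes of that list on the array, of 14 listed, the mean signal ran from 4.04 to 5.56 in female pools and from 5.21 to 5.44 in male pools. The mean of the forebrain list, with 5 of 7 genes on the array, was 7.74 in female pool 3 and 7.30 to 7.54 elsewhere. That of the midbrain and isthmus list, with 6 of 7, was 7.38 there and 7.16 to 7.40 elsewhere. Lists for mesenchyme, muscle and pigment cells had means of 4.19 to 4.55 in all 6 pools. In them 5 of 9, 4 of 7 and 2 of 6 genes lay above background. Other lists of non-neural cells were brighter. The endothelium list, with 6 of 6 genes above background, had means of 5.65 to 5.92. The epithelium list, with 4 of 7 genes on the array and all 4 above background, had means of 6.27 to 6.61. TWIST1, LUM, MYOD1 and TYR lay below 4.21 in each pool, whereas the mesenchyme gene COL1A2 had 7.22 to 7.40 in female pools and 7.21 to 7.26 in male pools, the muscle gene ACTC1 had 5.37 to 5.43 in female pools and 5.41 to 5.46 in male pools, and the pigment cell gene MITF had 6.02 to 6.06 in female pools and 6.08 to 6.20 in male pools. The probe sets read for TUBB3 and COL1A2 are of a class that the array maker marks as open to cross-hybridisation. In RNA of pooled brains, fewer cells of a type and less RNA per cell cannot be told apart.

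**Figure D1:**
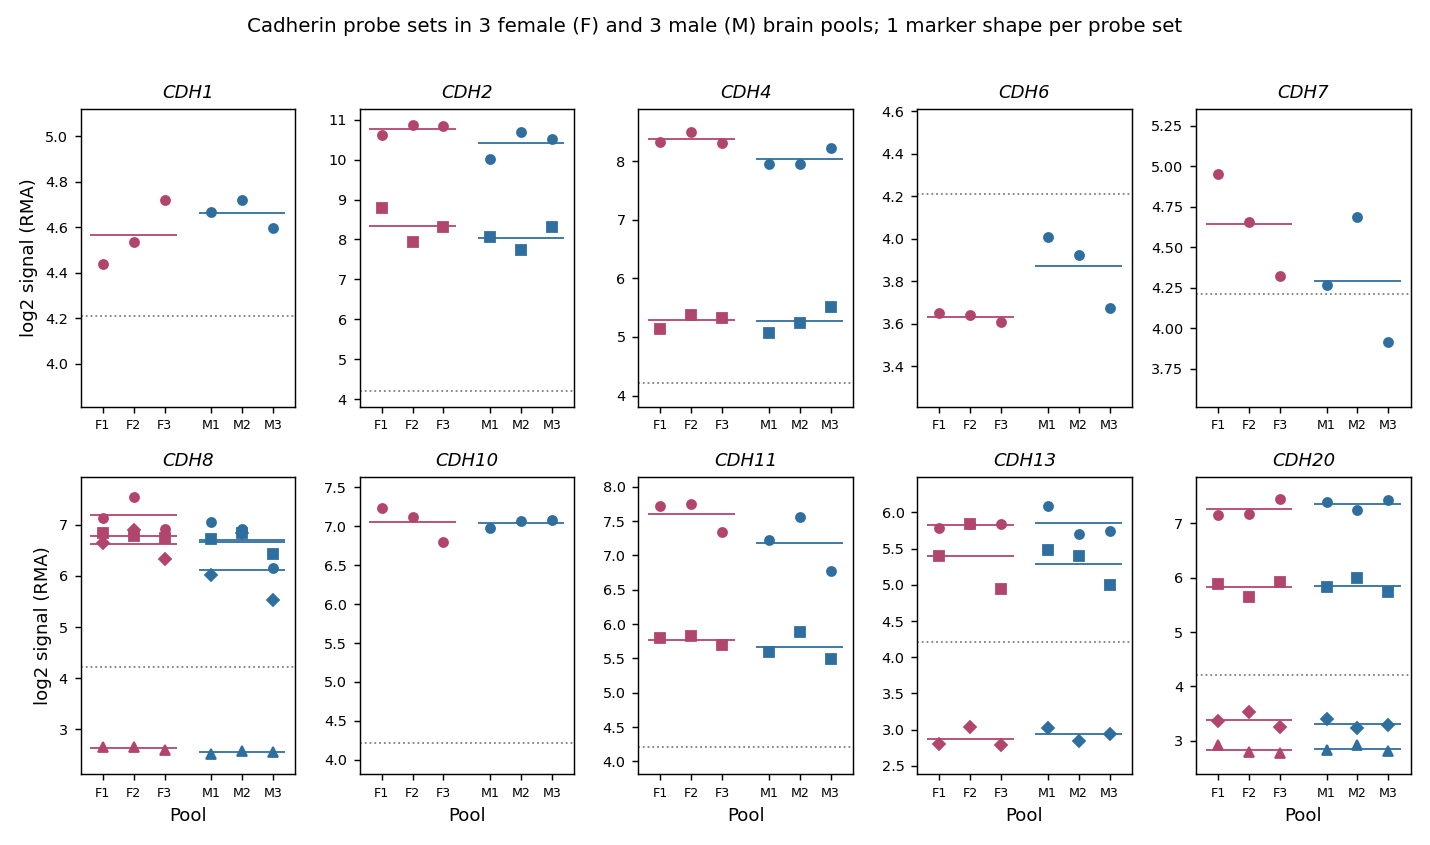
Log2 signal of each cadherin probe set (y axis, a scale of its own in each panel) in the 3 female pools (F1 to F3, left) and the 3 male pools (M1 to M3, right), with 1 panel per gene and 1 marker shape per probe set. Short lines are the means of a sex, and the dotted line is the viral 95th percentile of 4.21, under which the single CDH6 probe set and 1 or 2 probe sets each of CDH8, CDH13 and CDH20 fall.

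CDH2, or N-cadherin, is the main cadherin of the neuroepithelium and of young neurons. Its brighter probe set (GgaAffx.21844.1.S1_s_at) had 10.61, 10.87 and 10.86 in female pools, and 10.02, 10.69 and 10.53 in male pools. The ranges overlapped, since male pool 2 lay above female pool 1, and male pool 1 was the lowest of all. The mean was 10.78 ± 0.14 (SD) in female pools and 10.41 ± 0.35 in male pools. The female minus male difference was 0.37 (SE 0.17, 95% confidence interval -0.03 to 0.76, limma adjusted p = 0.508). Without male pool 1 it was 0.17. The other CDH2 probe set (Gga.1917.1.S1_at) had 8.78, 7.93 and 8.32 in female pools, and 8.07, 7.74 and 8.31 in male pools. It gave a like difference of 0.31 (SE 0.22, limma adjusted p = 0.688), but ordered the pools differently: female pool 1 was its highest and female pool 2 its second lowest. Without female pool 1 the difference was 0.09.

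CDH4, or R-cadherin, was first described in the chick retina and also marks brain nuclei. Its brighter probe set (Gga.3334.1.S1_at) had 8.33, 8.49 and 8.31 in female pools, and 7.95, 7.95 and 8.22 in male pools. Every female pool lay above every male pool, with a gap of 0.09 between the nearest values. The means were 8.38 ± 0.10 (SD) in female pools and 8.04 ± 0.15 in male pools. Their difference was 0.33 (SE 0.10, 95% confidence interval 0.10 to 0.56) or 1.26-fold, with an unadjusted p of 0.0107 and an adjusted p of 0.310 (limma). The difference lay between 0.28 and 0.42 when any 1 pool was left out. The second CDH4 probe set (Gga.13203.1.S1_at) had 5.14, 5.37 and 5.33 in female pools, and 5.07, 5.23 and 5.51 in male pools. These ranges overlapped almost fully, and its difference was 0.01 (SE 0.13), so the separation of the sexes was seen with 1 of the 2 CDH4 probe sets. In all, 2 of 21 cadherin probe sets had all female pools above all male pools, against 6.93% of all chicken probe sets; the other one, of CDH8, had means of 2.63 in female pools and 2.55 in male pools, far under the viral 95th percentile.

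Values of general brain markers are given beside these results. Over the 7 genes of the brain list on the array, of 8 listed, all 7 differences were above 0, with a median of 0.29, where 47% of all chicken probe sets lay above 0. The mean signal of the list was highest in female pool 2, at 10.10, and lay above the male values of 9.76 to 9.85 in every female pool. Of these genes NES alone passed the test: NES, which encodes the progenitor filament nestin, was higher in female pools by 0.55 (SE 0.08, limma adjusted p = 0.038). The differences of the other 6 did not pass (limma adjusted p = 0.211 to 0.965), and ran from 0.02 for STMN2 and 0.05 for FABP7 to 0.34 for ELAVL4 and 0.45 for TUBB3. The TUBB3 probe set is of the class open to cross-hybridisation. The part of the brain markers' values in the CDH2 and CDH4 differences was not tested.

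CDH1, or E-cadherin, the epithelial cadherin known in the chick as L-CAM, had 4.44, 4.54 and 4.72 in female pools, and 4.67, 4.72 and 4.60 in male pools. These values lie just above the viral 95th percentile and overlap. Its difference was -0.10 (SE 0.09, 95% confidence interval -0.31 to 0.12). Of 7 epithelial marker genes listed, 4 were on the array, and their mean signal was 6.27 to 6.41 in female pools and 6.40 to 6.61 in male pools.

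Among the type II cadherins, CDH8, CDH11 and CDH7 varied most between pools by their brightest probe sets, and each was lowest in male pool 3. Their highest pool was not shared: it was female pool 1 for CDH7 and female pool 2 for CDH8 and CDH11. CDH8 marks subdivisions of the embryonic forebrain in the mouse. Its brightest probe set (Gga.16831.1.S1_at) had 7.13, 7.53 and 6.91 in female pools, and 7.04, 6.92 and 6.16 in male pools. The groups overlapped, with female pool 2 highest and male pool 3 lowest, and the range over the 6 pools, 1.38, was larger than that of 98.2% of chicken probe sets at or above the median signal. The difference was 0.48 (SE 0.25, 95% confidence interval -0.10 to 1.06, limma adjusted p = 0.557), and 0.21 without male pool 3.

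The probe set of CDH8 shared between transcripts (GgaAffx.3322.1.S1_s_at) had 6.65, 6.90 and 6.34 in female pools, and 6.01, 6.83 and 5.52 in male pools. Female pool 2 was again highest and male pool 3 lowest, but male pools 1 and 2 differed between the probe sets. They deviated from the mean of the 6 pools by 0.10 and -0.03 in the brightest CDH8 probe set, and by -0.36 and 0.45 in this one. Here the difference was 0.51 (SE 0.31), and 0.21 without male pool 3 or 0.86 without male pool 2. The third CDH8 probe set above background (Gga.89.1.A1_x_at), of a class that the array maker marks as open to cross-hybridisation, ranged over 0.40 and had male pool 3 lowest as well, with a difference of 0.12 (SE 0.11).

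CDH11 is an adhesion protein of mesenchyme that the developing nervous system also uses. Its brighter probe set (Gga.4941.1.S1_at) had 7.72, 7.74 and 7.33 in female pools, and 7.22, 7.56 and 6.77 in male pools. Male pool 2 lay among the female values and male pool 3 well under all others. The means were 7.60 ± 0.23 (SD) in female pools and 7.18 ± 0.40 in male pools. The difference was 0.42 (SE 0.20, limma adjusted p = 0.530), and 0.21 without male pool 3. The dimmer CDH11 probe set (Gga.4941.2.S1_a_at) gave 0.11 (SE 0.11), also with male pool 3 lowest. The list of 9 mesenchyme genes, 5 of them above background, had a mean signal of 4.41 to 4.46 in female pools and 4.47 to 4.55 in male pools. Of those 5, DCN alone was lowest in male pool 3, at 5.16 against 5.32 to 5.86 in the other 5 pools. PRRX1 was highest there, at 5.35. COL1A2 was lowest in male pool 1, at 7.21, FOXC1 in male pool 2, at 3.97, and COL1A1 in female pool 2, at 3.97. The part of such genes in the CDH11 values was not tested.

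CDH7, which in the chick marks migrating neural crest cells and some brain nuclei, had 4.95, 4.65 and 4.32 in female pools, and 4.27, 4.68 and 3.91 in male pools. Male pool 3 was lowest and lay under the viral 95th percentile, and the groups overlapped. Its difference was 0.36 (SE 0.22, limma adjusted p = 0.624), and 0.17 without male pool 3 or 0.55 without male pool 2. Of the 6 neural crest and Schwann lineage genes listed 3 were on the array, with mean signals of 5.41 to 5.69 in female pools and 5.37 to 5.74 in male pools. SOX10, the crest and glial transcription factor, was lowest in male pool 3, at 4.76 against 5.42 to 5.68 in the other 5 pools. The 2 other genes did not have their lowest value there: TFAP2A had 6.52 in male pool 3 and was lowest in male pool 2, at 6.27, and FOXD3 had 4.84 in male pool 3 and was lowest in female pool 3, at 4.28. Their part in the CDH7 values was not tested.

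Male pool 3 was thus the lowest pool in 6 of the 16 cadherin probe sets above background, all of them from CDH7, CDH8 and CDH11, or 37.5%, where it was lowest in 16.6% of all chicken probe sets above background. Female pool 2 was the highest pool in 6 of 16, from 5 genes, where it was highest in 17.2% of all. These 16 probe sets come from 9 genes, and probe sets of 1 gene may read the same transcripts, which was not checked. The counts can therefore not be taken as counts of independent items. Male pool 3 was lowest in other genes too. Of the brain list, ELAVL4, at 9.86 against 9.93 to 10.57 elsewhere, and STMN2 were lowest there. SOX2, NES, PAX6, TUBB3 and FABP7 were lowest in male pool 1 or 2. Of the protocadherins, PCDH10, at 8.07 against 8.42 to 9.11 elsewhere, and PCDH20 were lowest there, and the others were not. In the remaining cadherin members above background male pool 3 was not the lowest. CDH2 and CDH4 were lowest in male pool 1 or 2, CDH1 in female pool 1 and CDH10 in female pool 3. A CDH13 probe set (Gga.3903.1.S1_at) was also lowest in female pool 3. It came near the CDH8 order, with female pool 2 highest and male pool 3 second lowest. CDH20 was highest or lowest in no fixed pool.

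**Figure D2:**
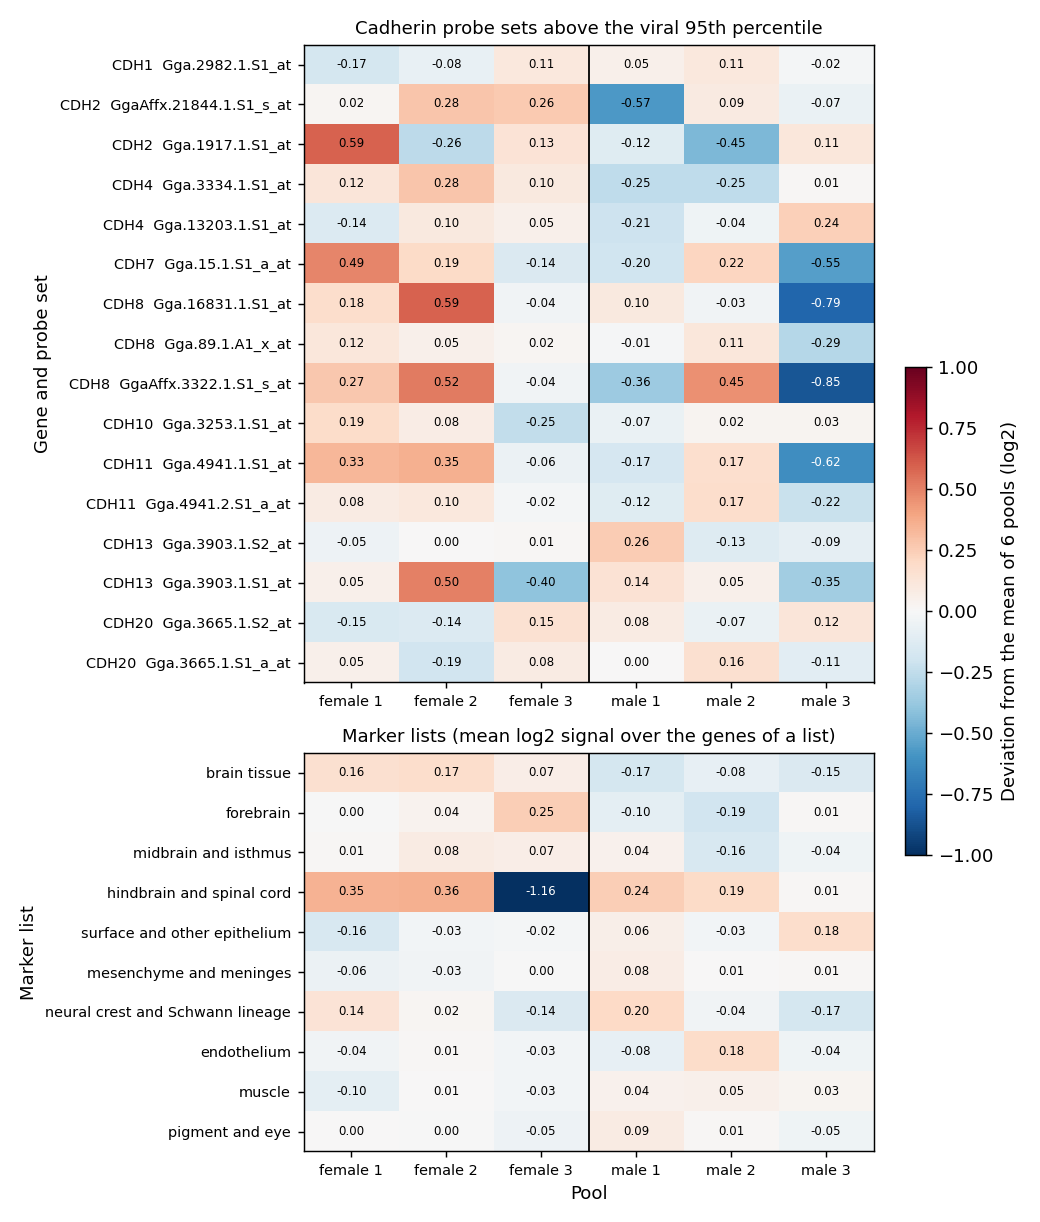
Deviation of each pool from the mean of the 6 pools (log2, colour and printed value) for the 16 cadherin probe sets above the viral 95th percentile (top) and for the mean signal of each marker list (bottom), female pools left and male pools right. CDH7, CDH8 and CDH11 share their lowest value in male pool 3, while the hindbrain and spinal cord list is lowest in female pool 3.

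The genes whose profile over the 6 pools lay nearest to that of CDH8, the most variable of the members at or above the median signal, were DCX, SULF1, ATRNL1, RGS9BP and TLL1, out of 9187 genes compared. Likeness to the brightest CDH8 probe set was the root mean square difference between the profiles after each was centred on its own mean. It was 0.08 for DCX and 0.12 for TLL1, against a median of 0.43 over all genes compared. A flat profile would lie at 0.41. These 5 genes were picked as the nearest, so their small distances and shared highest and lowest pools follow from the choice and test nothing. DCX, which encodes doublecortin, a microtubule protein of migrating neurons, had 7.47, 7.90 and 7.49 in female pools, and 7.44, 7.34 and 6.62 in male pools. As in CDH8, female pool 2 was highest and male pool 3 lowest. SULF1, an enzyme that trims sulfate from heparan sulfate, had 6.42, 6.84 and 6.05 in female pools, and 6.40, 6.28 and 5.61 in male pools. None of the 5 genes passed the sex comparison (limma adjusted p = 0.491 to 0.690).

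**Figure D3:**
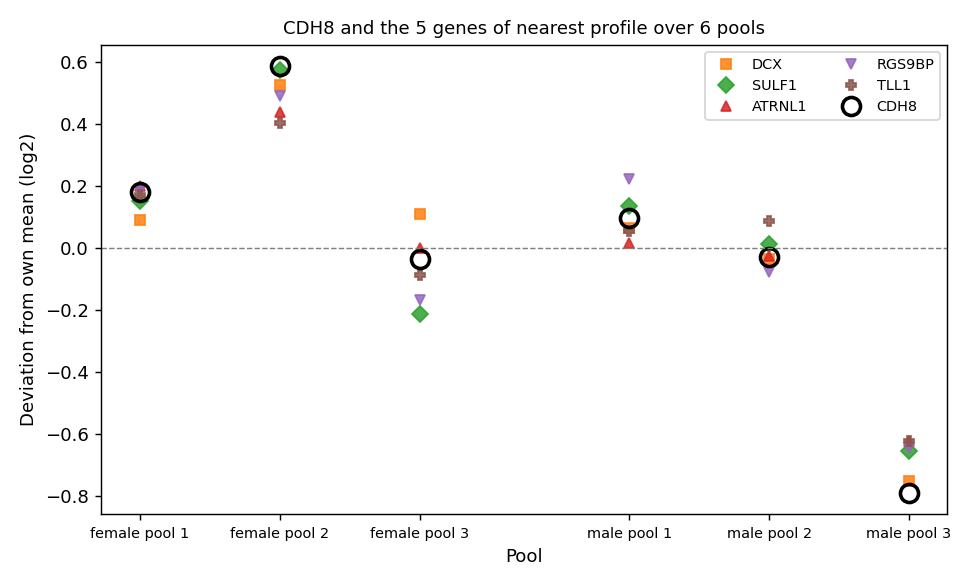
Deviation from a gene's own mean (log2, y axis) in the 3 female pools (left) and the 3 male pools (right) for CDH8 (open circles) and the 5 genes of nearest profile (filled markers). All 6 genes are highest in female pool 2 and lowest in male pool 3, the 5 having been picked for their likeness to CDH8.

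CDH10, CDH20 and CDH13 had sex differences near 0, with intervals of unequal width. CDH10, a type II cadherin of brain nuclei, had 7.23, 7.13 and 6.80 in female pools, and 6.98, 7.07 and 7.08 in male pools. The female pools enclosed all male values. Its difference was 0.01 (SE 0.12), with a 95% confidence interval of -0.26 to 0.28, or 0.83-fold to 1.21-fold. It was 0.14 without female pool 3, the pool low in several HOX genes. The part of those genes in the CDH10 values was not tested.

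CDH20, which in the chick spinal cord marks motor neuron pools, had 7.16, 7.17 and 7.46 in female pools, and 7.39, 7.24 and 7.42 in male pools by its brightest probe set (Gga.3665.1.S2_at). This was the steadiest of the bright members, with a range of 0.30 over the 6 pools, and its difference was -0.09 (SE 0.10, 95% confidence interval -0.33 to 0.15). A second probe set (Gga.3665.1.S1_a_at) gave -0.04 (SE 0.11), and the 2 others, with means of 2.84 to 3.39 in each sex, lay at background. The brightest CDH20 probe set was highest in female pool 3, at 7.46, close to the 7.42 of male pool 3. The second was highest in male pool 2, at 6.00. The hindbrain and spinal cord list was lowest in female pool 3, at a mean of 4.04 against 5.21 in male pool 3. Its part in the CDH20 values was not tested.

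CDH13, which in the chick repels some growing axons, had 5.79, 5.84 and 5.85 in female pools, and 6.09, 5.71 and 5.74 in male pools by its brightest probe set (Gga.3903.1.S2_at). All female values lay inside the range of the male pools. The difference was -0.02 (SE 0.11). Its second probe set (Gga.3903.1.S1_at) had 5.39, 5.84 and 4.94 in female pools, and 5.48, 5.40 and 4.99 in male pools, with both pools numbered 3 lowest. That probe set gave 0.10 (SE 0.23) with a wide 95% confidence interval of -0.43 to 0.63, and ran from -0.12 without female pool 2 to 0.33 without female pool 3. The third CDH13 probe set had means of 2.87 in female pools and 2.93 in male pools, at background.

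CDH6, known in the chick as cadherin-6B, marks the dorsal neural tube and premigratory neural crest. Its single probe set (GgaAffx.21819.1.S1_s_at) had 3.65, 3.64 and 3.61 in female pools, and 4.01, 3.93 and 3.68 in male pools. Every female pool lay below every male pool, by a gap of 0.03, which 1 of 21 members and 9.26% of all chicken probe sets showed. The difference was -0.24 (SE 0.10, unadjusted p = 0.0428, limma adjusted p = 0.460). All 6 values lie under the viral 95th percentile, so the transcript was not detectable above background with this probe set.

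**Figure D4:**
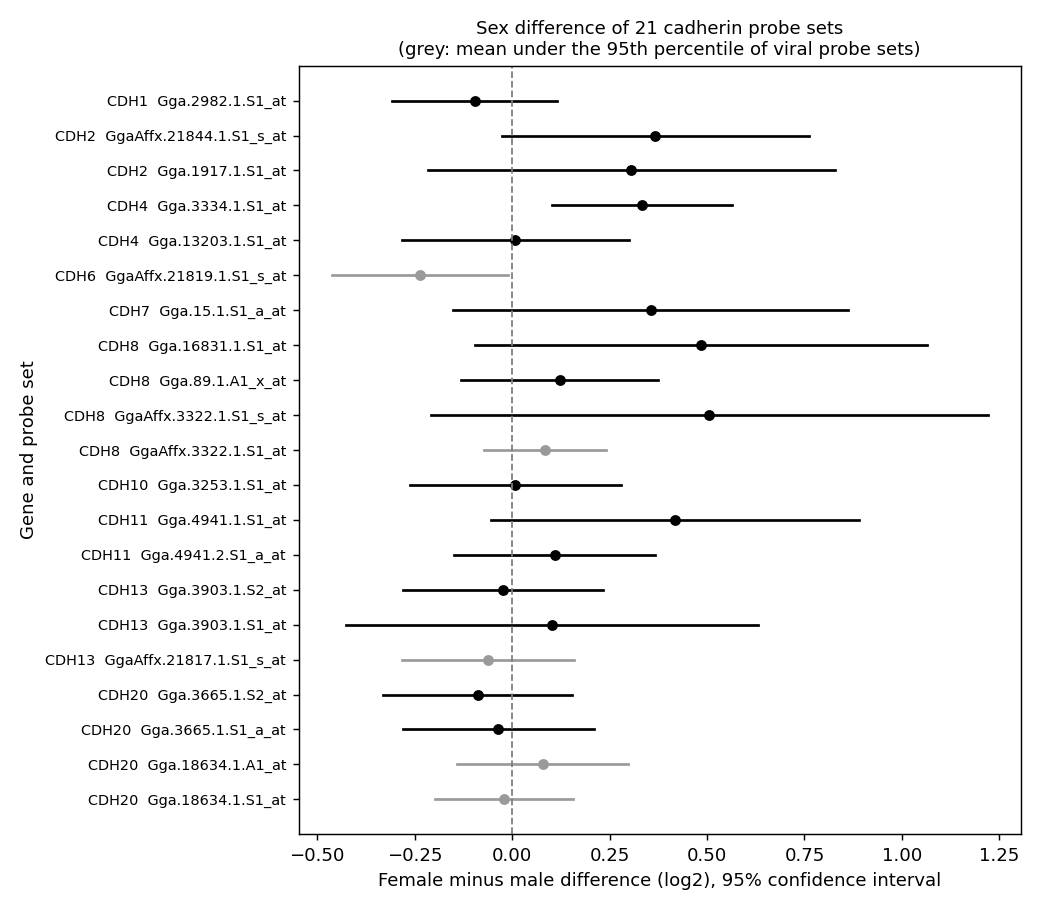
Female minus male difference (log2, x axis) of the 21 cadherin probe sets with the 95% confidence interval of limma's fit, n = 3 pools per sex. The intervals of CDH4 (Gga.3334.1.S1_at, 0.10 to 0.56) and CDH6 (-0.46 to -0.01) leave out 0, before any adjustment for the number of probe sets tested, and grey marks probe sets with a mean under the viral 95th percentile.

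Over the 21 probe sets the median difference was 0.08, with 14 above 0, against a median of -0.01 and a share above 0 of 47% over all chicken probe sets. Among the 16 above background the median was 0.12, with 12 above 0, where 48.6% of all chicken probe sets above background lay above 0. A difference of 0.3 or more, a limit chosen with the values known, was seen in 7 of these 16, in CDH2, CDH4, CDH7, CDH8 and CDH11, against 7.3% of the 23871 chicken probe sets above background. The count was 3 without male pool 3, in CDH2 and CDH4 alone, and 5 to 8 when any other pool was left out. Of these 7, all but that of CDH4 were also more variable than most. The SD between pools of a sex was 0.27 and 0.36 for the CDH2 probe sets and 0.35 for CDH7. It was 0.41 and 0.51 for the 2 CDH8 probe sets of large range and 0.32 for the brighter one of CDH11. The median over chicken probe sets above background was 0.13. A CDH13 probe set (Gga.3903.1.S1_at) had a like SD of 0.37 with a difference of 0.10. The further CDH8 and CDH11 probe sets above background had SDs of 0.15 each. CDH4 combined its difference with an SD of 0.13. Without male pool 3 the median over the 21 probe sets was 0.03, and without female pool 3 it was 0.14. The members were chosen with earlier results of these data known, and probe sets of 1 gene may read the same transcripts. These counts and medians therefore describe the members and test nothing.

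**Figure D5:**
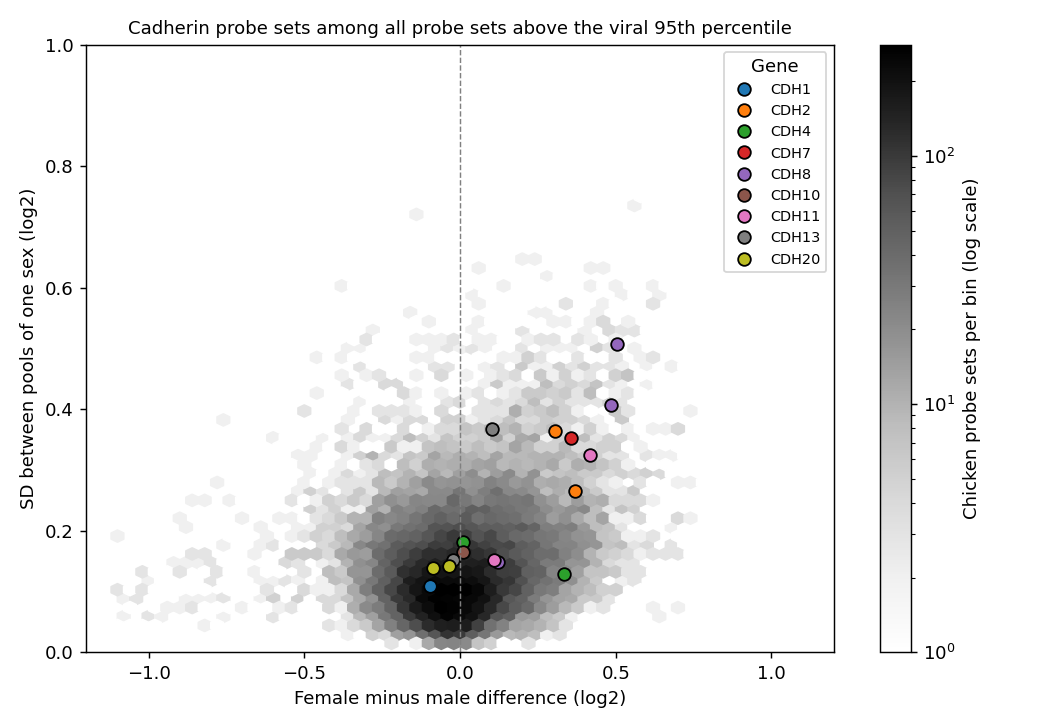
Female minus male difference (log2, x axis) against the SD between pools of a sex (log2, y axis) for the 16 cadherin probe sets above the viral 95th percentile (coloured by gene) over all chicken probe sets above it (grey bins, log colour scale; probe sets beyond the axis ends are not drawn). Probe sets of CDH2, CDH7, CDH8 and CDH11 with differences above 0.3 have SDs of 0.27 to 0.51, while that of CDH4 has 0.13. The remaining CDH8, CDH11 and CDH4 probe sets drawn have differences of 0.12, 0.11 and 0.01, with SDs of 0.15, 0.15 and 0.18.

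The partners of cadherins were read from lists of catenins, junction proteins and other cadherins. Of the 9 catenins, all on the array, 0 passed in either direction (limma, 3 at an unadjusted p under 0.05), and their median difference was 0.09. For this and the following lists, the share of all chicken probe sets at an unadjusted p under 0.05 was 10.4%. CTNND2, a neural member of the p120 catenin family, had 6.90, 7.37 and 7.02 in female pools, and 6.63, 6.64 and 6.52 in male pools. Its difference was 0.50 (SE 0.12, limma adjusted p = 0.217), and every female pool lay above every male pool, as in 6.93% of all chicken probe sets. JUP, or plakoglobin, a relative of beta-catenin, had 9.56, 9.64 and 9.71 in female pools, and 9.36, 8.83 and 9.37 in male pools, and differed by 0.45 (SE 0.15, limma adjusted p = 0.351). CTNNB1, beta-catenin itself, was nearly level, at 12.82 to 12.85 in female pools and 12.77 to 12.84 in male pools.

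Of 11 listed linkers and processing enzymes 9 were on the array, 0 passed (limma, 2 at an unadjusted p under 0.05), and the median difference was 0.18. AFDN, or afadin, which ties nectins to actin, differed by 0.35 (SE 0.10, limma adjusted p = 0.301), and ACTN1, an actin cross-linker of junctions, by 0.21 (SE 0.08, limma adjusted p = 0.447). ADAM10, a protease that sheds the outer part of CDH2, had 9.08, 9.25 and 8.75 in female pools, and 8.78, 8.98 and 8.41 in male pools, lowest in male pool 3 and overlapping between the sexes.

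Other classical and atypical cadherins had a median difference of 0.00 over the 21 on the array, of 24 listed, and 0 passed (limma, 2 at an unadjusted p under 0.05). CELSR3, an atypical cadherin needed for axon tracts in the mouse, differed by 0.38 (SE 0.10, limma adjusted p = 0.257) and CLSTN3, a calsyntenin of synapses, by 0.24 (SE 0.09, limma adjusted p = 0.431). For the 11 protocadherins, all on the array, the median was -0.03, and 0 passed (limma, 2 at an unadjusted p under 0.05). PCDH11X differed by -0.24 (SE 0.07, limma adjusted p = 0.310) and PCDH8 by 0.39 (SE 0.16, limma adjusted p = 0.447). The median over all chicken probe sets was -0.01. JUP, AFDN, ACTN1, CELSR3, CLSTN3 and PCDH8 had all female pools above all male pools, as CTNND2 did, and PCDH11X had them all below. These genes were named for the smallest p in their lists, which favours such separation.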

How the data were processed

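The deposited values are log2 signals, 1 per probe set and array, which the authors made with RMA (affy), per the submitters' processing notes, with versions not given in the sources used here. The RMA method adjusts for background, gives all arrays 1 intensity distribution and summarises probes, so it carries no detection call and would remove a shift shared by most genes. Labelling started from oligo(dT), per the labels' protocols, so a probe set's signal depends on its place in the transcript, and differences were tested within a probe set only. Probe sets were set against each other in signal only to pick the brightest of a gene and to judge background. No scaling was added.

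Of 38535 probe sets, 153 controls and 689 non-chicken probe sets were left out, and 37693 were tested without a filter. Symbols came from the platform annotation, which gives 1 gene for 27166, several for 177 and none for 10350; chromosomes and gene order came from RefSeq (GRCg7b) by gene identifier. Female and male pools were compared as female minus male, two-sided, with lmFit and eBayes of limma 3.58.1 (R 4.3.3), sex as the only term and Benjamini-Hochberg adjustment over the 37693 probe sets, at an adjusted p under 0.05. The procedure was tested on simulated data with noise drawn independently for each probe set and pool. That setting holds no deviation shared by many genes of a pool, so it does not cover such deviations. A list's gene was read by its brightest probe set, and the 2 genes of smallest p were named per list; CTNNB1, ADAM10 and the marker genes named were chosen after their values were seen. Members and lists were chosen with earlier results of these data known. The p-values measure the spread between pools, not between embryos, and precision is limited by the 6 arrays. Pearson's r was 0.991 to 0.995 between arrays of a sex and 0.988 to 0.992 between the sexes. Same-numbered pools were not treated as pairs. Alternatives covered variance model, array weights, dim probe sets, array centring, a replicate block and leaving out each pool.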

Additional observations from a re-analysis of the deposited data

How the results depend on the processing

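The number of cadherin probe sets called stayed 0 under the 5 other settings and the 6 omissions of a pool. The smallest adjusted p was 0.184 among the other settings and 0.204 among the omissions (limma). That 0.184 was of CDH11 (Gga.4941.1.S1_at) under the replicate block, against 0.530 in the main fit. The block also lowered the limma adjusted p of CDH2 (GgaAffx.21844.1.S1_s_at) from 0.508 to 0.225 and of CDH8 (Gga.16831.1.S1_at) from 0.557 to 0.244. The number called over all chicken probe sets was 209, with 245 under the replicate block, which called 0 cadherin probe sets, and 113 to 161 when a pool was left out (113, 129 and 130 with female pool 2, female pool 3 or male pool 1 left out, in that order). Deviations of same-numbered pools from their sex means correlated at 0.01, 0.15 and 0.32 over probe sets. Between differently numbered female and male pools the correlations were -0.24 to 0.11. These values do not settle whether the numbers mark pairs, and the main fit did not treat them as pairs. The median cadherin difference of 0.08 was 0.17 with 1 probe set a gene, and 0.03 to 0.14 when a pool was left out. The 7 cadherin probe sets above background with a difference of 0.3 or more were 3 to 8 when a pool was left out, a check added after seeing the data, with 3 without male pool 3. No sign changed under the other settings, while 14 of 126 values changed sign when a pool was left out, in 6 probe sets whose difference was 0.10 or less in size. They ran from -0.0932 to 0.129 for CDH4 (Gga.13203.1.S1_at), -0.0825 to 0.135 for CDH10, -0.123 to 0.326 (Gga.3903.1.S1_at) and -0.0939 to 0.0982 (Gga.3903.1.S2_at) for CDH13, and -0.0971 to 0.0502 (Gga.3665.1.S1_a_at) and -0.0665 to 0.0115 (Gga.18634.1.S1_at) for CDH20; the cause was not tested. Probe sets near 4.21, those of CDH1 and CDH7, sit close to background, which limits the size of a measurable difference.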
